A study of Mus musculus with 18 samples.

Results

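The genes described here are 8 genes of the mouse brain: Nnt, Gabra2, Wdfy1, Gm15446, Pcdhb9, Dynlt1b, Entpd4 and Ide. They were chosen by symbol, either because they are known to differ between substrains of the C57BL/6 mouse or because all young and all old libraries stand on separate sides of a gap. They are 8 of 24405 genes in the table and 8 of the 15808 genes with a mean normalised read count of at least 10. Nnt, Gabra2, Wdfy1 and Dynlt1b were lower in every old library than in every young library, and Gm15446, Pcdhb9 and Entpd4 were higher in every old library. Ide was higher on average in the old libraries, with overlap. The difference between young and old chose the genes, so its values are given as a description with no test. The tests below concern what the choice did not use, which is the effect of apigenin within each age and the behaviour of other genes. The gene lists were chosen with earlier results of these data known, so their counts are a description.

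All libraries hold polyadenylated RNA of whole brains taken after death from male mice, 1 mouse each. Young mice were 6 months old and old mice 27 months. Each age had an apigenin group, which drank 0.5 mg/mL of the plant flavone apigenin in water with 0.2% carboxymethylcellulose, and a vehicle group on 0.2% carboxymethylcellulose alone. The values used come from 4 young vehicle, 3 young apigenin, 5 old vehicle and 5 old apigenin mice. A further young apigenin library, replicate 3, has rows that slip against the gene names after Mrpl14 and is described apart. The strain label reads C57BL/6N for every mouse, while the growth protocol gives C57BL/6 without a letter. No label separates the colony that a mouse came from and its age, so substrain or colony and age cannot be told apart here.

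C57BL/6 mice were split into colonies many decades ago, and the sublines have since fixed different mutations. C57BL/6J mice carry a deletion of a block of Nnt exons and an intronic deletion beside a splice site of Gabra2 that lowers its brain mRNA. A copy number variant that spans Ide and Fgfbp3 has been described within C57BL/6J colonies. The mm10 reference is the C57BL/6J genome, so the deleted Nnt exons are absent from it. Mutations of this kind are inherited and mark the colony a mouse descends from.

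Values are normalised read counts, which are a gene's reads divided by a factor of its library. The values of a library add up to 3.3551e+07 to 3.35539e+07 in the 17 libraries used, so each was scaled to about the same total. Reads per library ranged from 28171596 to 41145635. Old apigenin 5 and old vehicle 4 stand apart in RNAs that stay in the nucleus: Malat1 was at 23604.5 and 31422.1 in them and at 4560.4 to 14686.2 in the other 8 old libraries. Markers of brain regions also differ between libraries. The summed level of 7 cerebellar markers was 3140 in old apigenin 3 and 5940 in young vehicle 1, against 17724 to 32010 in the other 15 libraries. Summed hindbrain and spinal cord markers ranged from 320 to 1748 in young and from 16.5 to 1716 in old libraries. All 6 oligodendrocyte markers were higher in old mice by limma, with sums of 155243 to 218627 in young and 224226 to 283982 in old libraries. The part of nuclear RNA, of region markers and of oligodendrocyte RNA in the values of the 8 genes was not tested. In whole tissue, fewer cells of a type and less RNA per cell cannot be told apart.

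Over all genes tested, 331 (2.09%) were higher in every old library than in every young library and 99 (0.626%) were lower, 430 in all. These shares are the background for the 3 higher and 4 lower members, and nothing is read from the comparison since the gap chose them. By limma, which pools the spread of the 4 groups, 1259 genes (7.96%) were higher and 654 (4.14%) lower in old mice at an adjusted p under 0.05, together 1913 (12.1%). Of these calls 65.8% were higher, against 56.7% after quantile normalisation, 55.2% with edgeR and 54.1% with DESeq2. Left out 1 at a time, young apigenin 1 and young apigenin 2 gave 1241 and 1271 calls. Without old apigenin 5 and old vehicle 4 there were 2919 calls, of which 55.7% were higher.

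**Figure D1:**
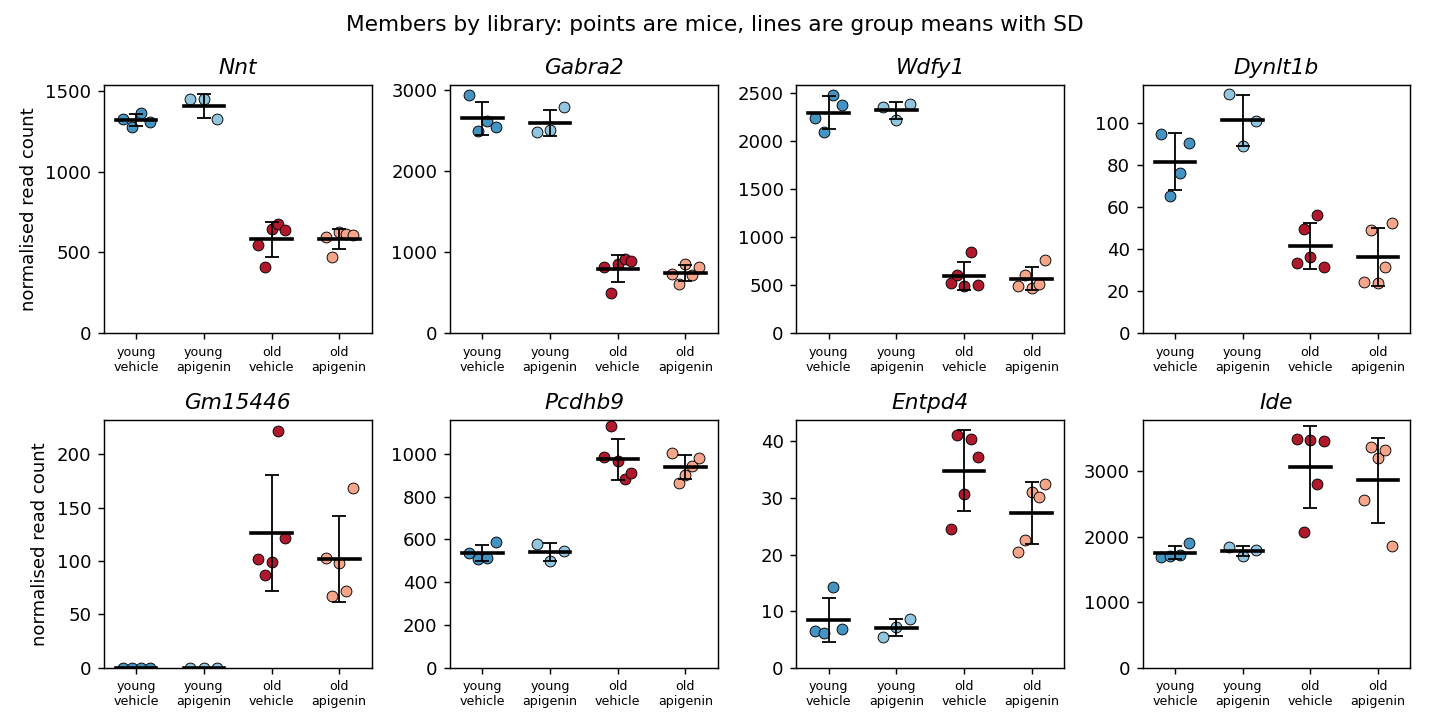
Normalised read count of each of the 8 genes by library, on linear axes that start at 0. Each point is 1 mouse, horizontal lines are group means and bars are SD over 3 to 5 mice. For 7 genes no old point reaches the young points, while for Ide old apigenin 5 at 1861.7 lies under the highest young point at 1913.5.

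Nnt encodes the nicotinamide nucleotide transhydrogenase of the inner mitochondrial membrane, which makes NADPH from NADH at the cost of the proton gradient. The gene lies at chr13:119335448-119408997 on the minus strand of GRCm38, where a second Nnt gene model, chr13:119335528-119408952, overlaps it. Its longest coding transcript there has 17 exons and 2505 coding bases without the stop codon, and none of its 50-base windows occurs in a transcript of a gene with another name. The second Nnt model has the same name and was not counted, so reads that fall in both models are not covered by this. Nnt stood at 1329.2, 1278.2, 1365.8 and 1307.3 in the young vehicle libraries and at 1453.3, 1452.5 and 1324.4 in the young apigenin libraries. It stood at 543.1, 407.0, 645.2, 672.9 and 638.7 in the old vehicle libraries and at 595.8, 470.2, 624.4, 613.4 and 610.1 in the old apigenin libraries. The highest old library, at 672.9, is far below the lowest young library, at 1278.2, and Nnt was detected with at least 435 reads in every mouse. Mean levels were 1359 ± 69.5 (SD, n = 7) in young and 582 ± 84.2 (SD, n = 10) in old mice. On the log2(value + 1) scale the difference was -1.24 ± 0.09 (SE), with -1.20 ± 0.12 in vehicle and -1.28 ± 0.13 in apigenin mice. Since no old library reaches a young one, both arms had to share this direction.

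The nearest tested genes around Nnt did not pass the test. They were Mrps30 and Fgf10 before it, at 948 and 543 kb, and Paip1 and 4833420G17Rik after it, at 19.6 and 53.8 kb. Their differences lay between -0.19 and 0.15 on the log2 scale (limma adjusted p of 0.34 to 0.788). Among 18 other genes of mitochondrial NADPH supply and peroxide handling, 3 rose in old mice and 0 fell, against 7.96% of all genes rising. These were Mthfd1l (0.39 ± 0.08, adjusted p = 0.00337), Mthfd2 (0.45 ± 0.09, adjusted p = 0.00454), both of mitochondrial folate metabolism, and the malic enzyme Me3 (0.26 ± 0.07, adjusted p = 0.0182). Idh2, the other large source of mitochondrial NADPH, had means of 1238 and 1344 (0.11 ± 0.06, adjusted p = 0.25). Sod2 and Txn2 were at 0.00 ± 0.03 and -0.01 ± 0.06. The list's median was 0.05, and that of all genes was 0.0192.

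Gabra2 encodes the alpha-2 subunit of the GABA-A receptor, the chloride channel behind fast inhibition, and is abundant in forebrain synapses. The gene lies at chr5:70957597-71095849 on the minus strand. Its promoter is shown because Gabra2 had the widest gap of all genes that were lower in old libraries. The RefSeq window of GRCm38.p6, chr5:71095800-71096099 on the minus strand, covers 250 bases before and 50 bases after the annotated start.
Gabra2 promoter: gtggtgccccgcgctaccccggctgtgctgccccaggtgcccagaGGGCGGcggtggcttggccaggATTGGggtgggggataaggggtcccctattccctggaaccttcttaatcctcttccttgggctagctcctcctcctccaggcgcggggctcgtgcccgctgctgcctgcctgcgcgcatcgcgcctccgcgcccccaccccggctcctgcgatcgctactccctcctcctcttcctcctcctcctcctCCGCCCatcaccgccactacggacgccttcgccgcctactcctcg
Capitals mark the matches: 2 GC boxes (GGGCGG or its reverse CCGCCC) and 1 CCAAT box (CCAAT or its reverse ATTGG), with 0 TATA boxes (TATAAA or TTTATA). Of 32851 RefSeq promoters of this length, 35.7% hold the GC box letters, 37.4% the CCAAT letters and 13.6% the TATA letters. A match of letters is a description and not a measured site.

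Gabra2 stood at 2943.7, 2501.3, 2621.0 and 2541.4 in the young vehicle libraries and at 2485.4, 2514.2 and 2787.1 in the young apigenin libraries. It stood at 813.7, 499.6, 851.5, 920.6 and 894.2 in the old vehicle libraries and at 724.8, 604.1, 855.0, 719.3 and 811.8 in the old apigenin libraries. Every old library is therefore under every young library, and the gap between the nearest pair is 1.43 on the log2 scale. Means were 2628 ± 174 (SD, n = 7) in young and 769 ± 134 (SD, n = 10) in old mice, a ratio of 3.42. The log2 difference was -1.79 ± 0.11 (SE), with -1.76 ± 0.14 in vehicle and -1.81 ± 0.15 in apigenin mice.

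Gabra2 lies in a cluster of GABA-A receptor genes, and its cluster neighbours did not pass the test. Gabrg1, at a distance of 115 kb, differed by 0.02 ± 0.07 (limma adjusted p = 0.872), and Gabra4, at 474 kb, by 0.02 ± 0.06 (adjusted p = 0.9). Gabrb1, at 562 kb, had means of 842 and 719 (-0.23 ± 0.09, adjusted p = 0.109). Of the other GABA-A subunit genes, 15 were measured above the minimum, 1 rose and 0 fell, where 7.96% and 4.14% of all genes did. The gene that rose was Gabrr2, a rho subunit best known from the retina, at means of 27.7 and 54.3 (0.92 ± 0.24, adjusted p = 0.0198). Their median difference was -0.02. Without old apigenin 5 and old vehicle 4 the count was 1 higher and 2 lower, where 1627 and 1292 of all 15745 genes tested were. Among 15 genes of the inhibitory synapse and of GABA handling 0 rose and 1 fell, which was the GABA-B receptor subunit Gabbr2 (-0.29 ± 0.07, adjusted p = 0.0089). Without those libraries this count was 1 higher and 2 lower, beside the same counts over all genes, and nothing particular to inhibitory genes is read from it.

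Wdfy1 encodes a FYVE and WD40 domain protein of early endosomes that has been linked to Toll-like receptor signalling. It lies at chr1:79702262-79776143 on the minus strand. Wdfy1 stood at 2241.6, 2090.9, 2484.1 and 2375.2 in the young vehicle libraries and at 2351.2, 2225.0 and 2385.1 in the young apigenin libraries. It stood at 516.7, 607.3, 486.6, 839.6 and 505.1 in the old vehicle libraries and at 493.9, 605.1, 464.2, 506.6 and 762.6 in the old apigenin libraries. The old libraries stay far under the young ones, and the highest old values belong to old vehicle 4 and old apigenin 5, the libraries with the most nuclear RNA. Means were 2308 ± 130 (SD, n = 7) and 579 ± 128 (SD, n = 10), a ratio of 3.99. The log2 difference was -2.02 ± 0.11 (SE), with -1.99 ± 0.15 in vehicle and -2.06 ± 0.16 in apigenin mice. It was between -2.14 and -1.99 under every alternative run.

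Mrpl44, a mitochondrial ribosomal protein gene whose start overlaps that of Wdfy1 on the other strand, had means of 657 and 692 (0.07 ± 0.06, limma adjusted p = 0.549). Serpine2, at 18.1 kb, Ap1s3, at 30.3 kb, and Scg2, at 262 kb, did not pass either (adjusted p of 0.303 to 0.79). In the WDFY family, Wdfy2 and Wdfy3 differed by -0.03 ± 0.11 (adjusted p = 0.902) and -0.11 ± 0.10 (adjusted p = 0.49). Wdfy4, which is expressed in immune cells, rose from a mean of 97.6 to 132 (0.43 ± 0.09, adjusted p = 0.00388). Without old apigenin 5 and old vehicle 4, Wdfy3 fell as well (-0.21 ± 0.07, adjusted p = 0.0347). Of 15 measured genes of endosomal Toll-like receptor signalling, 5 rose and 1 fell, where 7.96% and 4.14% of all genes did. The interferon regulator Irf7 rose from 70.1 to 220 (1.64 ± 0.11, adjusted p = 6.5e-08), the receptor chaperone Unc93b1 by 0.44 ± 0.06 (adjusted p = 0.000111) and Tlr7, a receptor for single-stranded RNA, by 0.55 ± 0.13 (adjusted p = 0.0111). The adaptor Traf3 was the gene that fell (-0.24 ± 0.06, adjusted p = 0.0214). Microglial markers, of which 2 of 7 rose and 0 fell, had sums of 10356 to 11609 in young and 11401 to 15178 in old libraries, and their part in these genes was not tested.

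**Figure D2:**
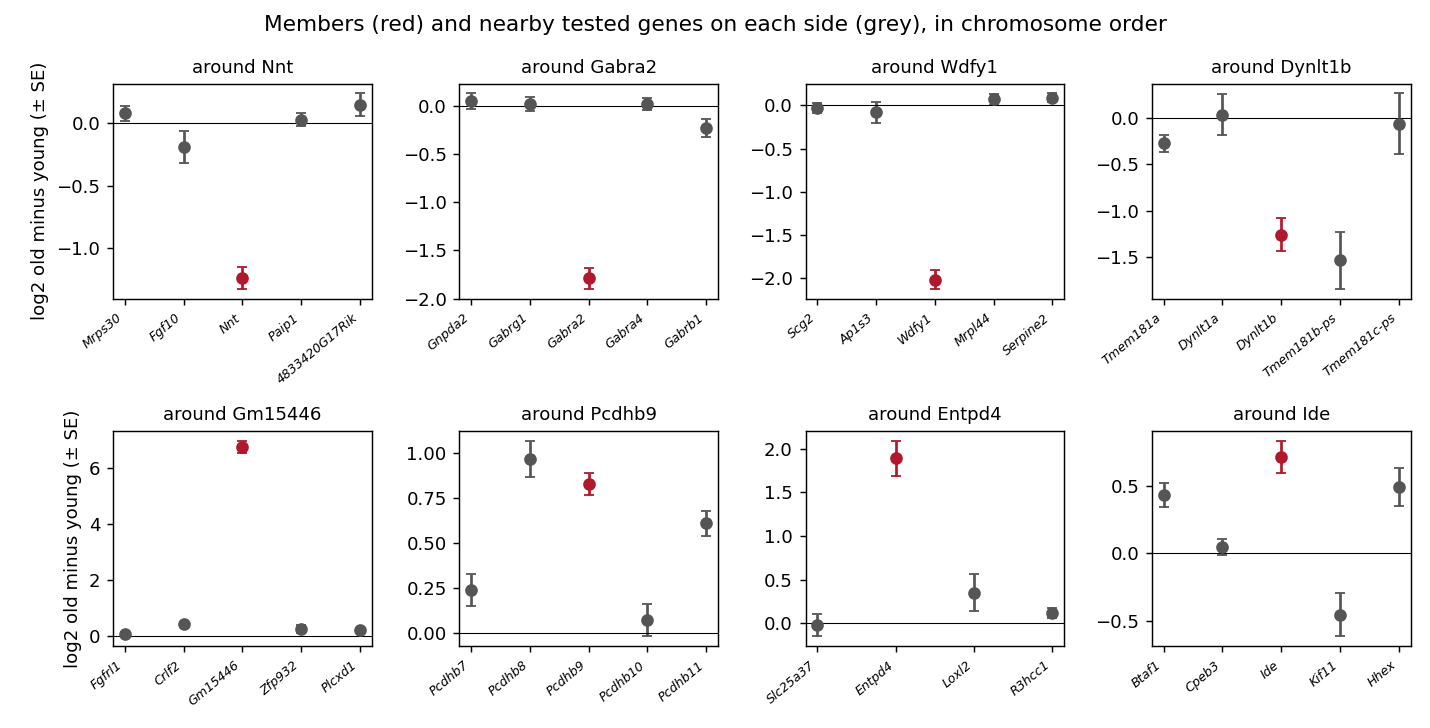
Log2 difference, old minus young, with SE over 17 libraries, for each of the 8 genes (red) and nearby tested genes on either side (grey), in chromosome order. The neighbours shown for Nnt, Gabra2, Wdfy1 and Entpd4 did not pass the test, while Pcdhb8 and Pcdhb11 rose beside Pcdhb9. Neighbours lie up to 1365 kb from a member (Gnpda2 from Gabra2). The height of Gm15446 depends on the pseudocount of 1, since no young library has a read of it.

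Gm15446 is a predicted protein-coding gene that shares sequence with the zinc finger gene Zfp932. It lies at chr5:109923400-109943936 on the plus strand, and 48.8% of the 50-base windows of its transcript occur in another gene, Zfp932 first. All 7 young libraries had 0 reads. Gm15446 stood at 102.0, 87.0, 99.4, 221.5 and 121.8 in the old vehicle libraries and at 102.9, 67.5, 98.2, 71.8 and 168.3 in the old apigenin libraries. It was thus present in 10 of 10 old mice, on 66 to 186 reads each, and was not detected in any young mouse. With a floor of 3 reads over the 7 young libraries, which equals a level of 0.427, the old mean of 114 ± 47.1 (SD, n = 10) was at least 267-fold higher. The highest values were again those of old vehicle 4 and old apigenin 5. Zfp932, which shares sequence with it, had means of 314 and 387 (0.25 ± 0.14, limma adjusted p = 0.257). Crlf2, the receptor of thymic stromal lymphopoietin at 364 kb, rose from a mean of 449 to 606 (0.43 ± 0.06, adjusted p = 0.000186), and its old libraries (556.7 to 684.3) were all above its young libraries (402.6 to 507.4). Fgfrl1 and Plcxd1 did not pass (adjusted p = 0.664 and 0.14).

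Pcdhb9 is 1 of the clustered beta protocadherins, single-exon genes whose cell-surface proteins give neurons individual identities. It lies at chr18:37400855-37403909 on the plus strand. Levels ranged from 498.5 to 587.8 in young and from 863.8 to 1128.4 in old libraries. The young values lie close together, and no old library comes near them. Means were 538 ± 35 (SD, n = 7) and 957 ± 76.6 (SD, n = 10), and the log2 difference was 0.83 ± 0.06 (SE), with 0.86 ± 0.08 in vehicle and 0.79 ± 0.09 in apigenin mice. Of the other 21 beta protocadherins, all measured, 9 rose and 0 fell by limma, and 7 were higher in every old library. Over all genes these shares were 7.96% and 2.09%. Pcdhb8, 42.3 kb before Pcdhb9, rose most (0.97 ± 0.10, adjusted p = 1.14e-05), followed by Pcdhb2 (0.80 ± 0.10, adjusted p = 6e-05) and Pcdhb3 (0.77 ± 0.09, adjusted p = 2.28e-05). Pcdhb11, at 17.5 kb, rose by 0.61 ± 0.07 (adjusted p = 3.43e-05), while Pcdhb10, the nearest gene at 7.75 kb, was at 0.07 ± 0.09 (adjusted p = 0.671). Pcdhb15 to Pcdhb22 all failed the test. The median of the 21 genes was 0.30, and 10 and 11 of them rose without old apigenin 5 and old vehicle 4 and without old apigenin 3 and young vehicle 1. Of the 50-base windows of Pcdhb9, 8.75% occur in another gene, Pcdhb7, Pcdhb3 and Pcdhb5 first, so a share of reads may be split between them.

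**Figure D3:**
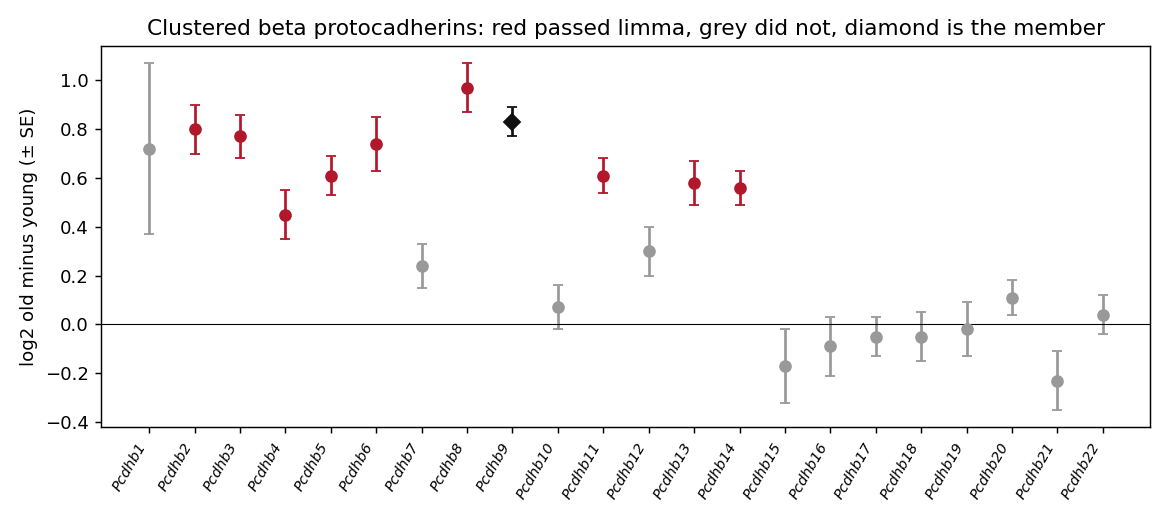
Log2 difference, old minus young, with SE over 17 libraries, for Pcdhb9 (diamond) and the other 21 clustered beta protocadherins in the order of their numbers. The 9 that rose (red) all carry numbers up to 14, and Pcdhb15 to Pcdhb22 lie near 0.

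Dynlt1b is 1 of several near-identical copies of the dynein light chain gene Dynlt1, whose product links cargo to the dynein motor. It lies at chr17:6430112-6436296 on the plus strand. The coding sequence has 342 bases in Dynlt1b and in each of Dynlt1a, Dynlt1c and Dynlt1f, and each of these copies differs from Dynlt1b at 1 base, A21C, with Dynlt1b's base first and positions counted from 1 at the A of the start codon. Bases 1 to 60 of the GENCODE coding sequences are shown since they hold the only base at which these coding sequences differ, in capitals. Differences outside the coding sequence are not listed.
Dynlt1b: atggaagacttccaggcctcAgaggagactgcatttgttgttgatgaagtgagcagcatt
Dynlt1a: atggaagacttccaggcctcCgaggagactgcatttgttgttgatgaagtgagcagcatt
Over the whole transcript, 83.2% of the 50-base windows of Dynlt1b occur in another gene, so its count depends on how the authors treated reads with several matches, and its values are uncertain.

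Dynlt1b ranged from 65.3 to 113.5 in young and from 23.8 to 56.0 in old libraries. The groups do not overlap, but the nearest libraries are only 0.22 apart on the log2 scale, the narrowest gap among the members that have 1. Means were 90 ± 15.8 (SD, n = 7) and 38.7 ± 11.9 (SD, n = 10), and the log2 difference was -1.26 ± 0.18 (SE), with -0.99 ± 0.25 in vehicle and -1.53 ± 0.27 in apigenin mice. The copy Dynlt1a, at 113 kb, had means of 76.9 and 81.8 (0.04 ± 0.22, limma adjusted p = 0.929). Dynlt1c was listed at 0 in all libraries. Tmem181b-ps, a pseudogene 2.23 kb from Dynlt1b, fell from a mean of 3307 to 1377 (-1.54 ± 0.31, adjusted p = 0.00359). Tmem181a, at 122 kb, fell by 0.27 ± 0.09 (adjusted p = 0.0481), with an adjusted p of 0.107 without old apigenin 3 and young vehicle 1. The level of Tmem181b-ps was 668.6 to 1153.6 in 8 old libraries and 3169.4 and 3560.9 in old apigenin 5 and old vehicle 4, inside the young range of 2198.1 to 4503.1. Dynlt1b was likewise highest in those libraries among the old, at 52.2 and 56.0. Of 11 measured subunits of cytoplasmic dynein, 1 rose and 0 fell, where 7.96% and 4.14% of all genes did. The gene that rose was Dynlt3 (0.16 ± 0.04, limma adjusted p = 0.0234). edgeR called 0 of these subunits. Limma called 0 higher and 1 lower without old apigenin 3 and young vehicle 1. It called 2 higher without old apigenin 5 and old vehicle 4, where 1627 of all 15745 genes tested were.

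Entpd4 encodes a nucleoside diphosphatase of the Golgi and lysosomal membranes. It lies at chr14:69337174-69367270 on the plus strand. A copy, Entpd4b, has a transcript of the same 3589 bases with 0 differences. Of the windows of Entpd4, 100% occur in another gene, so reads of the copies cannot be told apart by sequence. No values are listed for Entpd4b. The count of Entpd4 depends on how the authors treated reads with several matches, and its values are uncertain. Entpd4 stood at 5.5 to 14.2 in young and at 20.4 to 41.2 in old libraries. The groups do not overlap, though the young values rest on only 5 to 14 reads a library. Means were 7.86 ± 2.97 (SD, n = 7) and 31.1 ± 7.18 (SD, n = 10), a ratio of 3.96, and the log2 difference was 1.89 ± 0.20 (SE). Like Gm15446, it passed the minimum mean of 10 only through the old libraries. Its neighbours Slc25a37, Loxl2 and R3hcc1 did not pass limma (adjusted p of 0.201 to 0.933). Among 9 measured enzymes that hydrolyse nucleotides, 0 rose and 0 fell, where 7.96% and 4.14% of all genes did. Their median was 0.03, and 1 rose without old apigenin 5 and old vehicle 4.

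Ide encodes the insulin-degrading enzyme, a metalloprotease that cleaves insulin and amyloid beta. It lies at chr19:37268743-37337852 on the minus strand, and none of its windows is shared with another gene. Ide stood at 1690.4, 1708.1, 1721.7 and 1913.5 in the young vehicle libraries and at 1851.5, 1703.9 and 1794.7 in the young apigenin libraries. It stood at 3488.3, 2067.8, 3477.9, 2803.5 and 3466.7 in the old vehicle libraries and at 2567.5, 3373.2, 3203.8, 3322.2 and 1861.7 in the old apigenin libraries. Young values lie within a narrow band, whereas old values spread from the young level to nearly its double. Means were 1769 ± 86.3 (SD, n = 7) and 2963 ± 610 (SD, n = 10), with coefficients of variation of 4.88% and 20.6%, where counting error alone gives 2.36% and 1.84%. The log2 difference was 0.71 ± 0.12 (SE), with 0.77 ± 0.16 in vehicle and 0.65 ± 0.18 in apigenin mice.

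Fgfbp3, a secreted carrier of fibroblast growth factors on the same chromosome, rose from a mean of 214 to 357 (0.70 ± 0.13, limma adjusted p = 0.00182). Its level was 204.7 in old apigenin 5, within the young range of 180.7 to 235.7, and 301.8 to 485.8 in the other 9 old libraries. Old apigenin 5 was also the lowest old library for Ide. Among the 10 old libraries Ide and Fgfbp3 had a Pearson r of 0.76 (permutation p = 0.0108, adjusted 0.0216) and a Spearman rho of 0.77 (permutation p = 0.0123, adjusted 0.0246). Without the libraries farthest from the median of Ide, old apigenin 5 and old vehicle 2, r was 0.70. Among the 7 young libraries r was 0.35 (exact permutation p = 0.433, adjusted 0.433) and rho was -0.21 (p = 0.662, adjusted 0.662), and r was 0.15 without the farthest libraries, young apigenin 1 and young vehicle 4. These 2 comparisons were added after the values were seen, and tests are two-sided. Btaf1, a regulator of the TATA-binding protein at 256 kb, rose from a mean of 1282 to 1756 (0.43 ± 0.09, adjusted p = 0.00555), and Hhex, a homeobox gene at 97 kb, by 0.49 ± 0.14 (adjusted p = 0.0345, or 0.0528 without old apigenin 5 and old vehicle 4). Cpeb3, which is nearer than Btaf1 on that side at 60.1 kb, was at 0.05 ± 0.06 (adjusted p = 0.65), and Kif11 at -0.45 ± 0.16 (adjusted p = 0.0757). Btaf1 in old vehicle 2 was at 1184.6, its lowest old value and within the young range, and Ide there was at 2067.8, while Fgfbp3 was at 349.0. Btaf1 was highest in old vehicle 3, at 2069.0, where Ide was at 3477.9. The correlation of Btaf1 with Ide was not tested, so that of Fgfbp3 is not shown to be particular to it. Of 12 measured genes of insulin and amyloid peptide degradation 1 rose and 1 fell, where 7.96% and 4.14% of all genes did. These were the oligopeptidases Nln (0.14 ± 0.04, limma adjusted p = 0.0196) and Thop1 (-0.15 ± 0.05, adjusted p = 0.0423), and the list's median was -0.04. The count was 1 higher and 2 lower with edgeR, and also in limma without old apigenin 5 and old vehicle 4, where Thop1 itself did not pass (adjusted p = 0.0617).

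**Figure D4:**
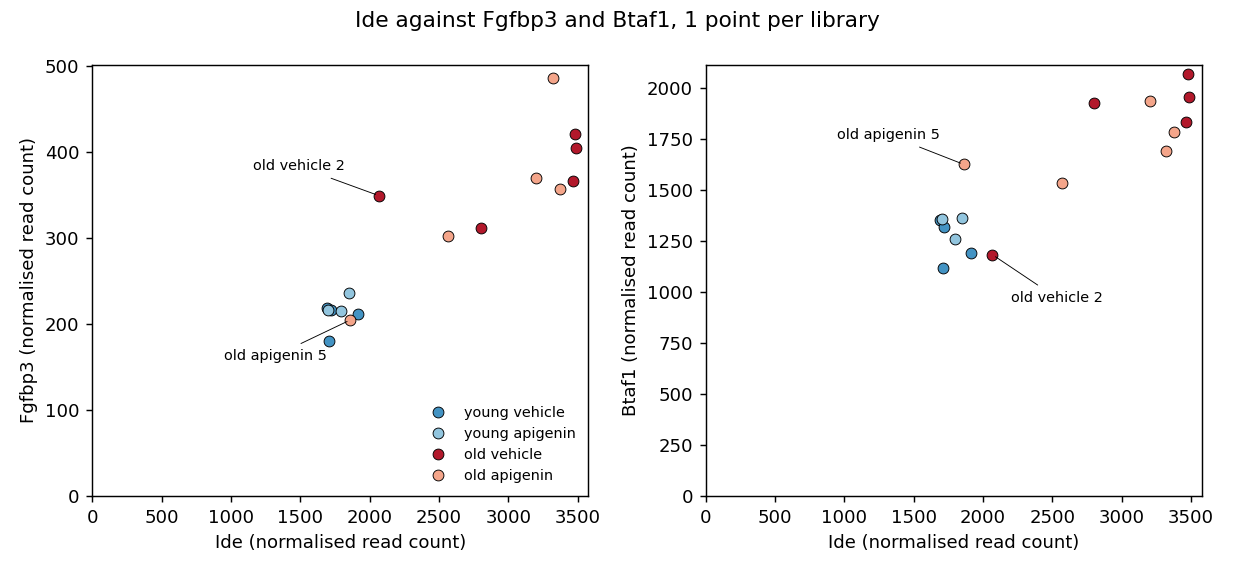
Normalised read count of Ide (horizontal) against Fgfbp3 (left) and Btaf1 (right), 1 point per library, on linear axes that start at 0. The young libraries form a tight group, most old libraries lie higher on both axes, and old apigenin 5 sits at the young level for Ide and Fgfbp3 but at 1627.5 for Btaf1.

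The gap between the nearest young and old library ranks the members among all 15808 genes, as a description of the measure that chose them. Gm15446 ranked 1, Gabra2 5, Wdfy1 7 and Nnt 13, followed by Pcdhb9 at 32, Entpd4 at 43 and Dynlt1b at 94, and Ide, with an overlap of 0.04 on the log2 scale written as a gap of -0.04, ranked 686. Among genes that were lower in old libraries, Gabra2, Wdfy1 and Nnt were the first 3, with gaps of 1.43, 1.32 and 0.92. The next was Gpr17, a receptor of oligodendrocyte precursors, with a gap of 0.37. The other genes of the first 10 were all higher in old libraries: Cst7 (2.49), Clec7a (1.86), C4b (1.55), Itgax (1.32), Mmp12 (1.30), Cd52 (1.13) and Ly9 (1.03). Most of these are genes of activated microglia, complement or other immune cells.

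**Figure D5:**
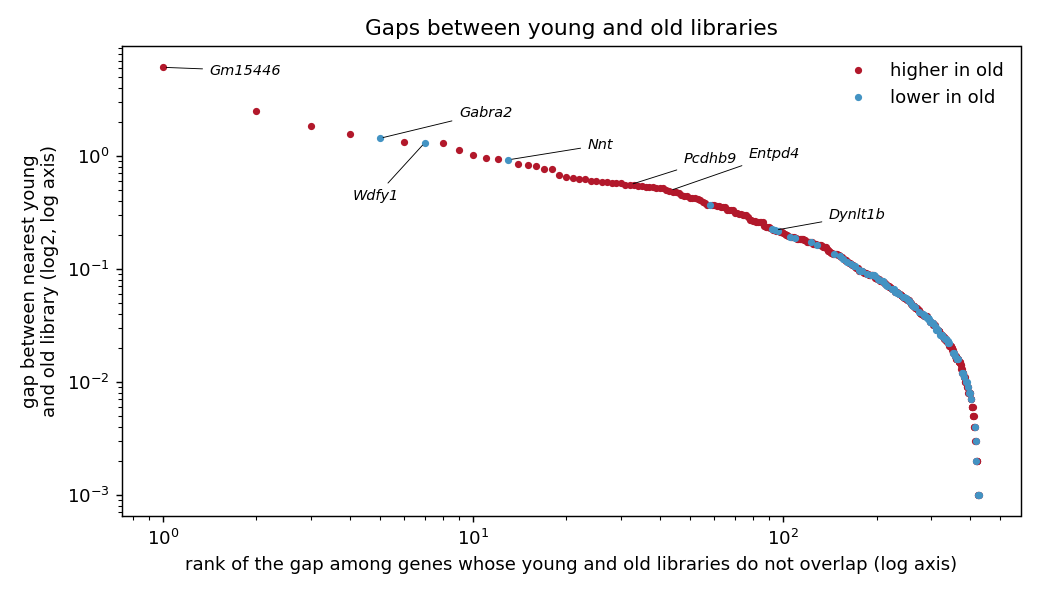
Gap between the nearest young and old library on the log2(value + 1) scale against its rank, for the 430 genes whose young and old libraries do not overlap, on log axes. Red genes are higher and blue genes lower in every old library, and Gabra2, Wdfy1 and Nnt (1.43, 1.32 and 0.92) stand above the next blue gene at 0.37.

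The members also varied within an age. The coefficient of variation was larger in old than in young libraries for Nnt (14.5% against 5.11%), Gabra2 (17.4% against 6.63%) and Wdfy1 (22.1% against 5.64%). It was also larger for Pcdhb9, Dynlt1b and Ide. Among members with reads in young mice Entpd4 was the exception, at 23.1% against 37.7%, where counting error alone gives 18% and 35.4%. Genes that are not members went both ways, with Cyfip2 at 6.57% against 5.31% and Crb1 at 21.8% against 53.6%. The share over all genes was not counted, so the wider spread is not shown to be particular to the members. For Nnt and Gabra2 the lowest old libraries were the same, old vehicle 2 (407.0 and 499.6) and old apigenin 2 (470.2 and 604.1). Wdfy1 was not low in them, at 607.3 and 605.1, above the old median of 511.6. In old apigenin 5 and old vehicle 4, Wdfy1, Gm15446 and Dynlt1b were above all other 8 old libraries, as were 3286 of all genes tested (20.8%), while Nnt, Gabra2, Pcdhb9, Entpd4 and Ide were not. Over all alternatives, with those libraries left out among them, the log2 differences between ages were -1.29 to -1.18 for Nnt, -1.85 to -1.71 for Gabra2, 0.80 to 0.85 for Pcdhb9, -1.39 to -1.16 for Dynlt1b, 1.50 to 2.02 for Entpd4 and 0.68 to 0.80 for Ide.

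Likeness of profile was measured as the root mean square difference between mean-centred log2 profiles over the 17 libraries, which all share the difference in age. The profiles most like that of Nnt were those of Gpr17 (0.22), Tnc (0.28) and Gabra2 (0.30). Those most like Gabra2 were Nnt (0.30), Wdfy1 (0.32) and Tnc (0.44), and those most like Wdfy1 were Gabra2 (0.32), Dynlt1b (0.44) and Nnt (0.48). Tnc encodes the matrix protein tenascin-C, and its libraries overlap, with 238.1 to 559.3 in young and 118.8 to 244.8 in old mice.

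Apigenin against vehicle was not used to choose the genes and was tested over all 15808 genes. In old mice limma called 0 genes (0%), with 381 at an unadjusted p under 0.05, and edgeR and DESeq2 called 0 as well. In young mice limma called 0 genes (0%), with 490 at an unadjusted p under 0.05, edgeR called 0 and DESeq2 called 1, which was not a member. In old mice the members differed by between -0.34 and 0.02 on the log2 scale: Nnt by 0.02 ± 0.11 (adjusted p = 0.995), Gabra2 by -0.08 ± 0.13 (adjusted p = 0.986), Wdfy1 by -0.05 ± 0.14 (adjusted p = 0.988), Ide by -0.10 ± 0.15 (adjusted p = 0.986). Gm15446 had means of 126 ± 54.6 in 5 vehicle and 102 ± 40.3 in 5 apigenin mice (-0.30 ± 0.28 on the log2 scale, limma adjusted p = 0.986). In young mice Nnt differed by 0.09 ± 0.14, Gabra2 by -0.03 ± 0.16, Wdfy1 by 0.02 ± 0.17, and Ide by 0.02 ± 0.19 (each adjusted p = 0.999). For Nnt, Gabra2 and Wdfy1 these differences are smaller than their standard errors in both ages. Dynlt1b was lower with apigenin in old mice (-0.23 ± 0.23) and higher in young mice (0.32 ± 0.28), and the test of that difference gave -0.55 ± 0.36 (limma adjusted p = 1). The interaction of apigenin with age was called for 0 genes (0%) by limma, edgeR and DESeq2, with 196 at an unadjusted p under 0.05 in limma.

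Young apigenin replicate 3 took no part in the choice of the genes. In the rows before the slip it had Gabra2 at 2511.1, Gm15446 at 0, Dynlt1b at 78.3, Entpd4 at 9.5 and Ide at 1915.3. For the rows after the slip, the values were put back by the row offset with the best correlation to the other libraries over the surrounding rows. This gave Nnt at 1314.3 (offset -1, r = 0.994), Pcdhb9 at 582.0 (offset -1, r = 0.994) and Wdfy1 at 2521.6 (offset -3, r = 0.995). All 8 values were nearer the mean of the other young libraries than that of the old ones. Of these values 6 lie within the range of the other young libraries, and Wdfy1 and Ide lie just above their highest values of 2484.1 and 1913.5. The value of Ide is also inside the range of the old libraries, 1861.7 to 3488.3. Fgfbp3 was at 156.6 in this library, under the young range of 180.7 to 235.7.

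Among 7 other genes known to be altered in a C57BL/6 substrain, 5 were measured above the minimum, and 3 rose and 1 fell in old mice. Over all genes the shares were 7.96% and 4.14%. This list was chosen with earlier results of these data known, so nothing is read from the comparison. Crb1, whose frameshift mutation in C57BL/6N affects the retina, rose from a mean of 14.7 to 58.7 (2.07 ± 0.26, limma adjusted p = 5.81e-05), with 5.1 to 28.5 in young and 41.9 to 76.6 in old libraries. Its groups do not overlap. In young apigenin replicate 3 it was at 6.3. Fgfbp3 rose as given above, and Dock2, which is duplicated in some C57BL/6N lines and serves migration of immune cells, rose by 0.35 ± 0.10 (adjusted p = 0.0372). Cyfip2, which carries a coding change in C57BL/6N, differed by -0.03 ± 0.04 (adjusted p = 0.641). Nlrp12 and Mmrn1 had means under 3 in both ages and were not tested. Reads at the mutations themselves were not analysed here, so the values give the level of each gene and not the allele a mouse carries.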

How the data were processed

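The deposited table holds, for each gene and library, a normalised signal that the authors made by dividing gene read counts by a library factor. The values themselves show it: dividing each by its library's smallest step gave whole reads, to within 0.01, in 100% of cases. STAR, DESeq2 and build mm10 are named in the submitters' processing notes, without versions. How reads were counted, with which annotation and strand setting, is not given in the sources used here. Of 24411 rows the last 6 were left out because their columns are out of step, and young apigenin replicate 3 was left out because only 27.1% of its expressed rows after Mrpl14 lie within 2-fold of the other libraries, against 98.9% of the expressed rows among the 2000 up to it. limma 3.58.1 in R 4.3.3 was fitted on log2(value + 1) with 4 group means and a mean-variance trend over 17 libraries, for 15808 genes with a mean of at least 10. P-values are two-sided with Benjamini-Hochberg adjustment over these genes and a threshold of 0.05. Age differences are the mean of the differences within each arm. edgeR 4.0.16 and DESeq2 1.42.0 on recovered reads, other pseudocounts and filters, quantile normalisation, a replicate block and leaving out libraries were alternatives. The limma contrasts and, for age, edgeR and DESeq2 were tested on simulated data with a common dispersion for all genes. The recovery is not reported here, so the simulation does not say what the absence of apigenin calls could miss.

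The members and the gene lists were chosen with earlier results of these data known. Named genes are all members, up to 3 genes of each list by adjusted p (all genes of a list of 7 or fewer), the 2 nearest tested genes on each side of a member, the 3 most alike profiles and the 10 widest gaps. Others were named after their values were seen. Some genes under this rule are not reported here. Positions are from GENCODE M21 on GRCm38, in which 96.3% of symbols were found. Shared windows were counted between its transcripts. Promoter sequence is from RefSeq, GRCm38.p6.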

Additional observations from a re-analysis of the deposited data

Results flagged for a closer look

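A total of 5 member and group pairs held a library far from the rest of its group, out of 23 tested with Dixon's criterion, which flags about 1 group in 20 by chance. Nnt was at 470.2 in old apigenin 2, with 595.8 to 624.4 in the other old apigenin libraries. Gabra2 was at 499.6 in old vehicle 2, with 813.7 to 920.6 in the others of that group. Gm15446 was at 221.5 in old vehicle 4, with 87.0 to 121.8 in the others. Entpd4 was at 14.2 in young vehicle 3, on 14 reads, with 6.1 to 6.9 in the others. Ide was at 1913.5 in young vehicle 4, with 1690.4 to 1721.7 in the others.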

How the results depend on the processing

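The age difference of each member kept its direction under all alternatives run (220 values, 0 reversed). For the 7 members with a gap the choice itself all but fixed this direction, so nothing is read from it. Only for Gm15446 did the fitted size move by more than the largest SD within a group. It ranged from 4.49 to 9.81 on the log2 scale with the pseudocount or tool, since its young libraries are at 0. Counts of genes that differ with age were 1241 to 2215 with 1 library left out and 2919 without old apigenin 5 and old vehicle 4, and the genes without overlap were then 694 in place of 430. For apigenin no member passed under any alternative (smallest adjusted p 0.502 in old mice, 0.983 in young mice and 0.923 for the interaction), and DESeq2 called 1 gene in young mice in place of 0. The signs of 9, 17 and 6 of the small apigenin values changed, and the cause was not tested. In old mice DESeq2 gave -0.01 for Nnt, leaving out 1 library gave -0.10 to 0.09 for Nnt, -0.17 to 0.08 for Wdfy1 and -0.24 to 0.05 for Ide, dropping old apigenin 5 and old vehicle 4 gave 0.02 for Ide, and dropping old apigenin 3 and young vehicle 1 gave -0.01 for Nnt and 0.01 for Wdfy1. In young mice quantile normalisation gave -0.01 for Wdfy1 and -0.04 for Pcdhb9. edgeR and DESeq2 each gave -0.02 for Wdfy1 and -0.02 for Pcdhb9, with -0.01 and -0.02 for Ide. Leaving out 1 library gave -0.08 to 0.02 for Gabra2, -0.03 to 0.05 for Wdfy1, -0.03 to 0.07 for Pcdhb9, -0.30 to 0.09 for Entpd4 and -0.01 to 0.06 for Ide, and dropping old apigenin 3 and young vehicle 1 gave 0.02 for Gabra2. For the interaction, leaving out 1 library gave -0.21 to 0.03 for Gabra2, -0.18 to 0.06 for Wdfy1 and -0.26 to 0.02 for Ide, and dropping old apigenin 3 and young vehicle 1 gave 0.01 for Wdfy1. Both pairs of libraries were chosen for omission after the data were seen.

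Replicate numbers share no stated litter or day, and deviations of same-numbered libraries correlated at -0.254 to 0.307 over 22 pairs (4 above 0.1), so the numbers were not taken as pairing. With the replicate block 1776 genes differed with age in place of 1913, 0 genes with apigenin, and in young mice Gabra2 was at 0.02 and Wdfy1 at -0.02. Counting error limits Entpd4 and Dynlt1b most, at 5 to 44 and 23 to 117 reads a library.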
